A study of Mus musculus with 12 samples.

Results

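tRNA-Asn, the transfer RNA that carries asparagine to the ribosome, was followed base by base in hematopoietic stem and progenitor cells (the cells from which blood is made) of old and young mice. Its members are all rows whose entry is named as a tRNA-Asn, with entries of identical values counted once. This gave 262 rows from 5 distinct entries, which stand for 13 of the 404 tRNA entries and 878 of the 28302 rows deposited. The whole series holds 14170 rows from 213 distinct entries when counted in the same way. Pseudouridine was read as a block to reverse transcription: CMC, a carbodiimide, stays bound to pseudouridine and halts the enzyme, and the stop rate is the percent of reads over a base that end there. The 4 groups were old cells with CMC, old cells in the BEU buffer without CMC, young cells with CMC and young cells in BEU buffer, with 3 libraries each. All cells carried the wildtype genotype, all RNA was small RNA demethylated with wild-type and mutant AlkB before CMC was added, and ages in months were not given. Whether replicates are separate animals is not stated, so p-values cover the spread among these libraries, and that spread may be technical. The tables hold tRNA alone, so the labelled cell type could not be set against marker genes.

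Pseudouridine is uridine turned around on its sugar by pseudouridine synthases, each of which acts on its own positions. In mammals PUS1 is known for positions 27 and 28 at the top of the anticodon stem, PUS3 for positions 38 and 39, PUS7 for position 13, TRUB1 and PUS10 for position 55 in the T loop, and PUS10 also for position 54. tRNA-Asn also carries bases altered in other ways in mammals, among them queuosine at position 34, a threonylcarbamoyl adenosine at position 37, a dimethylated guanosine at position 26 and a methylated adenosine at position 58. Some of these halt reverse transcriptase without CMC unless the demethylase removes them.

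The best-covered entry, tRNA-Asn-GTT-3-1, holds the values of 9 identical entries and is shown whole because the results below are positions in it. Capitals mark the T bases at positions 27, 28, 54 and 55, which are the known pseudouridine positions of the anticodon stem and the T loop that hold a T here.
tRNA-Asn-GTT-3-1: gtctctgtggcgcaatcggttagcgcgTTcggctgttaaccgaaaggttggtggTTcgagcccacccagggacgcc
The entry has 76 bases, numbered to 75 by the usual tRNA scheme because position 20a follows position 20. The stretch from position 26 to position 44, which is the anticodon arm with 1 base on either side, is repeated with the anticodon in capitals, since the T bases at 27 and 28 lie 5′ of it in the stem.
positions 26 to 44: gttcggctGTTaaccgaaa
Positions 13, 38 and 39 hold no T in this entry, so the known PUS7 and PUS3 positions do not arise. The other entries differ from it by 1 or 2 bases, written with the base of 3-1 first and counted from 1 at the 5′ end of the entry. tRNA-Asn-GTT-1-1 carries A68G and tRNA-Asn-GTT-2-1 carries G58A, which is position 57 of the T loop. tRNA-Asn-GTT-4-1 carries G60A and A68G, and tRNA-Asn-GTT-5-1 carries C57T, which is position 56, and A68G. Rows were given for 55 bases of 1-1, 70 bases of 2-1, 34 of 4-1 and 25 of 5-1, and the others were not analysed here. The RefSeq gene table of build GRCm38.p6, which is mm10, lists 13 genes for this tRNA, 6 of them on chromosome 3 between 96322074 and 96497854. No entry name matched a RefSeq symbol, so no entry could be given a locus.

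Coverage set what could be measured. It reached at most 8011 reads at any base of tRNA-Asn, and stops recorded 3′ of a base at this ceiling were mostly few. A value was taken as lying at the ceiling where coverage at the base, or at any base 5′ of it, had reached 7500 reads. tRNA-Asn-GTT-3-1 reached it in 9 of the 12 libraries, including all 6 BEU libraries, and coverage of this entry ranged from 7 to 8000. Its 300 values at the ceiling held a median of 2 stop reads, with a range of 1 to 2941, so a rate there may be partly or hardly recorded. Entries 1-1 and 2-1 reached it in 3 and 2 libraries, all of them BEU libraries. Entries 4-1 and 5-1 stayed thin, with at most 43 and 212 reads at any base. Sites were tested where coverage was at least 20 in all 12 libraries, which left 74 rows of 3-1, 55 of 1-1, 56 of 2-1, 18 of 5-1 and none of 4-1.

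**Figure D1:**
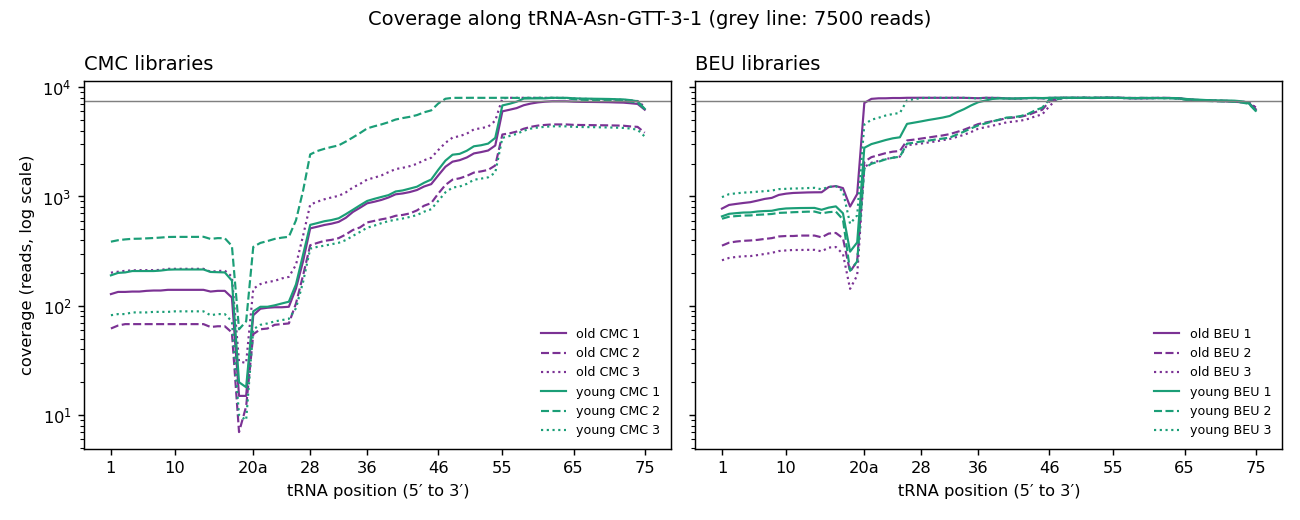
Coverage in reads (log scale) along tRNA-Asn-GTT-3-1 from position 1 to position 75, one line per library, with CMC libraries on the left and BEU libraries on the right; the grey line marks 7500 reads. At position 55 all 6 BEU lines lie at the ceiling, and 4 of the 6 CMC lines lie below it.

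With CMC, reverse transcription of tRNA-Asn stopped at 2 neighbouring T bases of the anticodon stem, positions 27 and 28, and at position 55 of the T loop. In the best-covered entry each of positions 27 and 28 stopped 37.6% to 46.9% of reads in the CMC libraries, against 0.025% to 2.51% in the BEU libraries. Among the 37 tRNA-Asn T sites tested, 8 were called in old cells and 8 in young cells. A site counted as called if the edgeR fit gave a Benjamini-Hochberg adjusted p under 0.05, the 3 replicate pairs all rose and their mean rise was 10 points or more. Over all tRNAs the same rule called 20.3% of T sites in old cells and 18.8% in young cells, which are the shares to set the tRNA-Asn counts against. With values at the ceiling left out site by site, limma called 6 of 28 tRNA-Asn T sites in each age, against 20.4% of T sites over all tRNAs in old cells and 19.4% in young cells. The calls fell at few positions: 6 of 6 T sites at positions 27 and 28 in either age, 2 of 6 at positions 54 and 55 in old cells and 1 of 6 in young cells, and 1 of 9 at positions 47, 48 and 51 in young cells alone. No call was made among the 9 T sites of the anticodon loop (positions 33, 35 and 36) or the 7 from position 1 to 20a. The same 7 sites were called in both ages, with 1 more in each age alone. No overlap over all tRNAs was counted, so whether this agreement is unusual was not tested. In old cells, other tRNAs were called at 37 of 47 T sites at position 27 and 39 of 75 at position 28. They were called at 42 of 144 at position 54 and 135 of 159 at position 55. In young cells these were 42 of 47, 39 of 75, 37 of 144 and 127 of 159. At positions 33 and 36, other tRNAs were called at 0 of 131 and 0 of 34 T sites in either age. At position 35 it was 4 of 25 in old cells and 5 of 25 in young cells. At position 16 it was 1 of 53 in either age, so the lack of a call there is usual. No share of other tRNAs was taken at positions 47, 48 and 51 or elsewhere from position 1 to 20a.

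**Figure D2:**
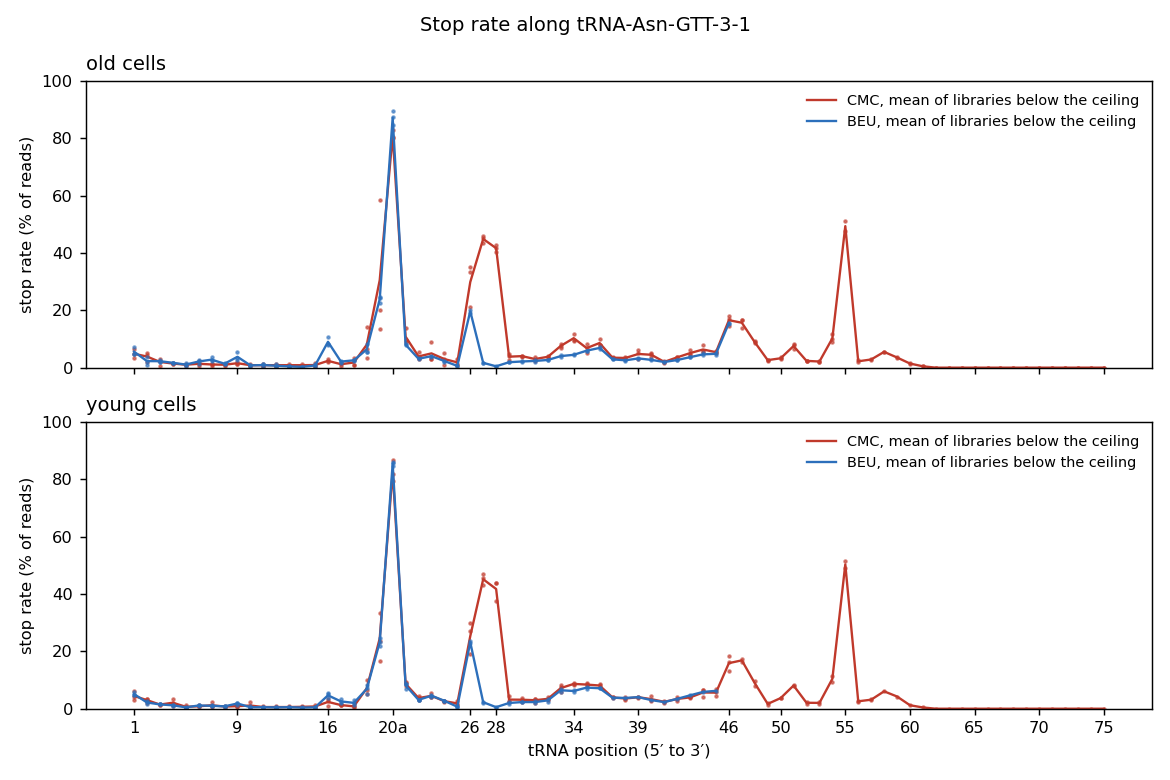
Stop rate in percent of reads along tRNA-Asn-GTT-3-1, with old cells above and young cells below; lines are means of the libraries below the coverage ceiling (red CMC, blue BEU) and dots are single libraries. The CMC line stands apart from the BEU line at positions 27 and 28, both lines share the peak at position 20a, and the BEU line ends before position 55, where no BEU library lies below the ceiling.

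Position 27 is the first base of the anticodon stem and a known site of PUS1. In tRNA-Asn-GTT-3-1 its stop rate was 43.4%, 45.3% and 46.1% in the old CMC libraries, against 0.05%, 1.81% and 1.60% in the old BEU libraries. It was 46.9%, 45.6% and 43.0% in the young CMC libraries, against 2.51%, 2.09% and 2.36% in the young BEU libraries. The CMC and BEU values did not overlap, and the lowest value, from old BEU library 1, lies at the ceiling, as does that of young BEU library 3. The rise was 43.8 ± 0.659 points in old cells (SD, n = 3, adjusted p = 0.000279) and 42.9 ± 1.95 points in young cells (SD, n = 3, adjusted p = 0.00131). From the libraries below the ceiling alone, the mean was 44.9% with CMC and 1.71% in BEU in old cells, and 45.2% with CMC and 2.3% in BEU in young cells.

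Position 28, the next base 3′ and also a known PUS1 site, was read before position 27, because the enzyme copies from the 3′ end. Its stop rate was 42.9%, 41.9% and 40.3% in the old CMC libraries, against 0.025%, 0.590% and 0.393% in the old BEU libraries. It was 37.6%, 43.9% and 43.8% in the young CMC libraries, against 0.432%, 0.691% and 0.277% in the young BEU libraries. Again no CMC library came near a BEU library, and the same 2 BEU libraries lie at the ceiling. The rise was 41.4 ± 1.45 points in old cells (SD, n = 3, adjusted p = 1.44e-05) and 41.3 ± 3.57 points in young cells (SD, n = 3, adjusted p = 2.56e-05).

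Since a read that stops at position 28 cannot reach position 27, the 2 rates act one after the other. Of the reads over position 28, 64.9 ± 0.869% ended at position 28 or 27 in old CMC libraries, against 1.47 ± 1.22% in old BEU libraries (SD, n = 3 each). In young cells the share was 64.3 ± 1.40% with CMC and 2.73 ± 0.150% in BEU (SD, n = 3 each). Within the CMC libraries the rate at position 27 exceeded that at position 28 by 3.30 points on average, and did so in 5 of 6 libraries. An exact two-sided sign-flip test over the 6 CMC libraries gave p = 0.0938, where the smallest possible p is 0.0313. With 6 libraries it neither showed a difference nor showed the 2 rates to be equal. The adjusted value was 0.3 over 9 exact tests computed.

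The same 2 bases rose in entries 1-1 and 2-1, but these are largely the same reads. At position 27 the stop reads of 1-1 equalled those of 3-1 exactly in 5 of 6 CMC libraries, and so did those of 2-1. Coverage there was 94.2% to 96.1% of that of 3-1 for 1-1 and 96.1% to 97.9% for 2-1. The rises at position 27 and 28 ranged from 41.4 to 46.1 points over the 3 entries in old cells and from 41.3 to 44.7 points in young cells, with 3-1 lowest and 1-1 highest at both bases. In 1-1, position 27 stopped 45.1%, 48% and 48.9% of reads in old CMC libraries, against 0.025%, 1.96% and 1.72% in old BEU libraries, and 48.9%, 47.9% and 44.9% in young CMC libraries, against 2.74%, 2.27% and 2.57% in young BEU libraries. Position 28 of 1-1 gave 43.8%, 43.7% and 41.7% in old CMC libraries, against 0.025%, 0.640% and 0.422% in old BEU libraries, and 39.1%, 45.3% and 44.9% in young CMC libraries, against 0.449%, 0.715% and 0.564% in young BEU libraries. The 6 calls at these positions therefore describe 2 bases of largely 1 set of reads, not of 3 separate tRNAs.

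Among other tRNAs with a T at these positions, a rise was common but mostly smaller. At position 27 the median rise over 47 other T sites was 28.7 points in old cells and 26.4 in young cells, and 12 of the 47 rose further than that of 3-1 in each age. At position 28 the median over 75 other T sites was 18.1 points in old cells and 14.1 in young cells, and 1 of the 75 rose further than that of 3-1 in each age. Of 20 other tRNAs with T at both bases tested, 10 had both called in old cells and 16 in young cells, those of old cells carrying Arg, Cys, Leu or Ser. These are descriptions, since near-identical tRNAs share reads and no test of a difference between tRNAs was made.

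**Figure D3:**
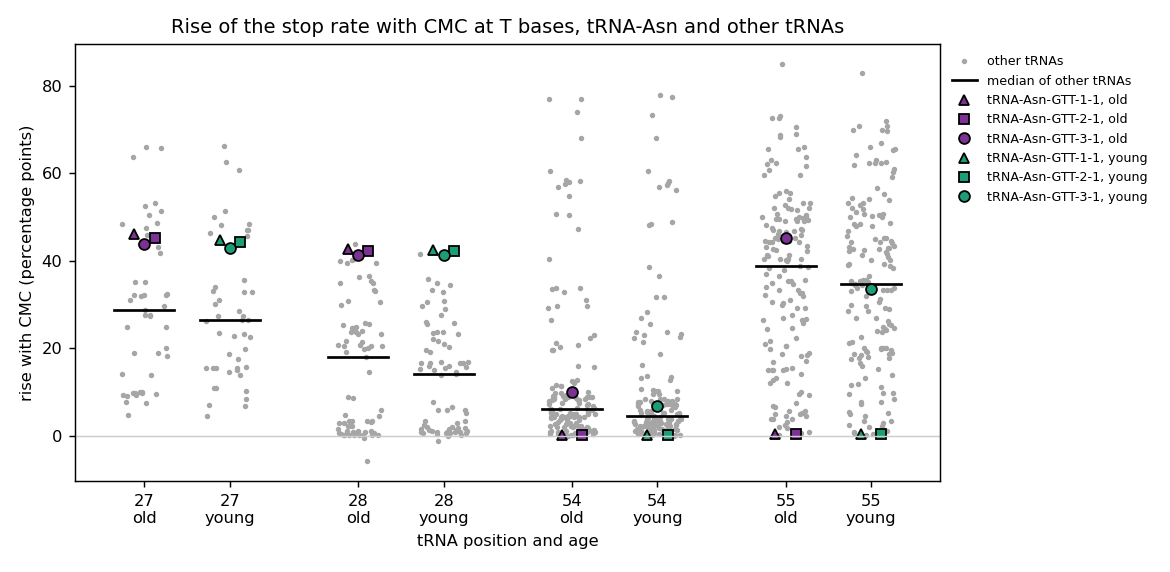
Rise of the stop rate with CMC, in percentage points, at T bases of positions 27, 28, 54 and 55, with old cells left of young cells; grey dots are other tRNAs, black lines their medians, and coloured symbols the 3 tRNA-Asn entries tested. The tRNA-Asn symbols lie near 41 to 46 points at positions 27 and 28, while at positions 54 and 55 entries 1-1 and 2-1 lie near 0.

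Position 55 is the conserved pseudouridine of the T loop, a known site of TRUB1 and PUS10. In tRNA-Asn-GTT-3-1 its stop rate was 51%, 47.7% and 37.2% in the old CMC libraries and 49.2%, 0.150% and 51.5% in the young CMC libraries. Old CMC library 3 and young CMC library 2 lie at the ceiling, and they hold the 2 lowest values. The 4 CMC libraries below the ceiling gave 49.4 ± 2.34% in old cells and 50.4 ± 1.60% in young cells (SD, n = 2 each). The BEU libraries read 0.0376%, 0.025% and 0.0125% in old cells and 0.025%, 0.025% and 0.0125% in young cells, all at the ceiling and with 1 to 3 stop reads each, so the stop without CMC cannot be read in this entry. The site was called in both ages, with a rise of 45.3 ± 7.22 points in old cells (adjusted p = 0.000825) and 33.6 ± 29.0 points in young cells (adjusted p = 0.00887; SD, n = 3 each), but those calls rest on BEU values at the ceiling. Without young replicate 1 or 3 the young call was lost, with rises of 25.8 and 24.7 points and adjusted p of 0.154 and 0.176. As a guide from elsewhere, 67 T sites at position 55 of other tRNAs stayed below the ceiling in all 12 libraries, and their median stop rate was 40.6% with CMC and 0.778% in BEU.

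Position 54, the neighbouring T-loop base at which PUS10 is known to act, stopped fewer reads. In 3-1 the rate was 10.0%, 8.95% and 11.8% in the old CMC libraries and 11.4%, 0.163% and 9.50% in the young CMC libraries, with young CMC library 2 at the ceiling. The BEU libraries read between 0.05% and 0.225%, all at the ceiling. The CMC libraries below the ceiling averaged 10.2 ± 1.42% in old cells (SD, n = 3) and 10.5 ± 1.35% in young cells (SD, n = 2). The site was called in old cells, with a rise of 10.1 points (adjusted p = 0.00211), and not in young cells, where the rise was 6.90 points (adjusted p = 0.0222). Without old replicate 3 the old rise was 9.32 points and missed the 10-point rule. Without young replicate 2 the young rise was 10.3 points and passed it, so the calls at position 54 turn on single libraries. Over 144 other T sites at position 54 the median rise was 6.05 points in old cells and 4.58 points in young cells.

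Entries 1-1 and 2-1 stopped under 1% of reads at position 55 in every library. Position 55 of 1-1 read 0.104%, 0.628% and 0.367% in old CMC libraries, against 0.0126%, 0.0212% and 0.0233% in old BEU libraries. It read 0.475%, 0.174% and 0.337% in young CMC libraries, against 0.0132%, 0.0204% and 0.0126% in young BEU libraries. Position 55 of 2-1 read 0.630%, 0.588% and 0.373% in old CMC libraries, against 0.0274%, 0.0348% and 0.0379% in old BEU libraries, and 0.988%, 0.217% and 0.328% in young CMC libraries, against 0.0243%, 0.0387% and 0.0148% in young BEU libraries. All CMC libraries of both entries lie below the ceiling. Their coverage at position 55 with CMC was a median of 17.3% of that of 3-1 for 1-1 and 9.05% for 2-1. At position 27 these medians were 95.2% and 96.3%. The low CMC rates are thus shares of the reads given to each entry, and whether these tRNAs lack the stop was not tested. The BEU values of 1-1 rest on 1 stop read in each of the 6 libraries, the lowest number in the tables, 3 of them at the ceiling, and those of 2-1 on 1 or 2 stop reads, 2 of them at the ceiling. CMC and BEU rates that low cannot be set against each other, and no rise is read from them. Position 54 of both entries held 1 to 8 stop reads in every library, likewise too few to compare. A read that stopped at position 55 spans only the bases 3′ of it, where 1-1 differs from 3-1 at 1 base and 2-1 at 1 base; the sources used here do not give how such reads were assigned among the entries.

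Entry 5-1 differs from the others at position 56, the base just 3′ of position 55. Its position 55 stopped 95.7%, 94.7% and 94.4% of reads in old CMC libraries, against 89.8%, 91.1% and 85.1% in old BEU libraries. It stopped 90.6%, 92.9% and 92.3% in young CMC libraries, against 92.8%, 90.9% and 90.2% in young BEU libraries. The stop was thus near complete with and without CMC, at a coverage of 19 to 204 reads. It was not tested, because 1 library fell below 20 reads. Position 54 of 5-1 was covered by 2 to 19 reads, too few to read a rate, and no row was given for positions 54 and 55 of 4-1.

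In entry 2-1, stops were recorded in the T loop at and next to the base that sets it apart. A57, its variant base, was the one A, C or G site of tRNA-Asn called, among 166 tested, and it was called in both ages. Over all tRNAs 0.61% of such sites were called in old cells and 0.368% in young cells. The stop rate at A57 was 25.2%, 25.2% and 29.4% in old CMC libraries, against 3.88%, 7.97% and 7.91% in old BEU libraries. It was 28.5%, 20.1% and 27% in young CMC libraries, against 8.67%, 14.1% and 8.34% in young BEU libraries. The rise was 20.0 ± 2.40 points in old cells (adjusted p = 0.00388) and 14.8 ± 7.67 points in young cells (adjusted p = 0.0395; SD, n = 3 each), and old BEU library 1 and young BEU library 3 lie at the ceiling. Bases other than T cannot be pseudouridine. The young call was lost with the replicate block, with 1 subtracted from coverage and stops, and on leaving out young replicate 1 or 3, or old replicate 2 or 3. A58, a base methylated in many tRNAs, stopped 34.1%, 31.9% and 29.2% of reads in old CMC libraries, against 0.711%, 15.1% and 12.9% in old BEU libraries, and 35.7%, 21.5% and 33.6% in young CMC libraries, against 17.1%, 23.8% and 1.43% in young BEU libraries. With ceiling values left out, limma called A58 in old cells beside A57, in a fit that called 0.771% of A, C and G sites in old cells and 0.535% in young cells. The same base of 3-1 read 5.5% and 5.55% in the old CMC libraries below the ceiling.

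**Figure D4:**
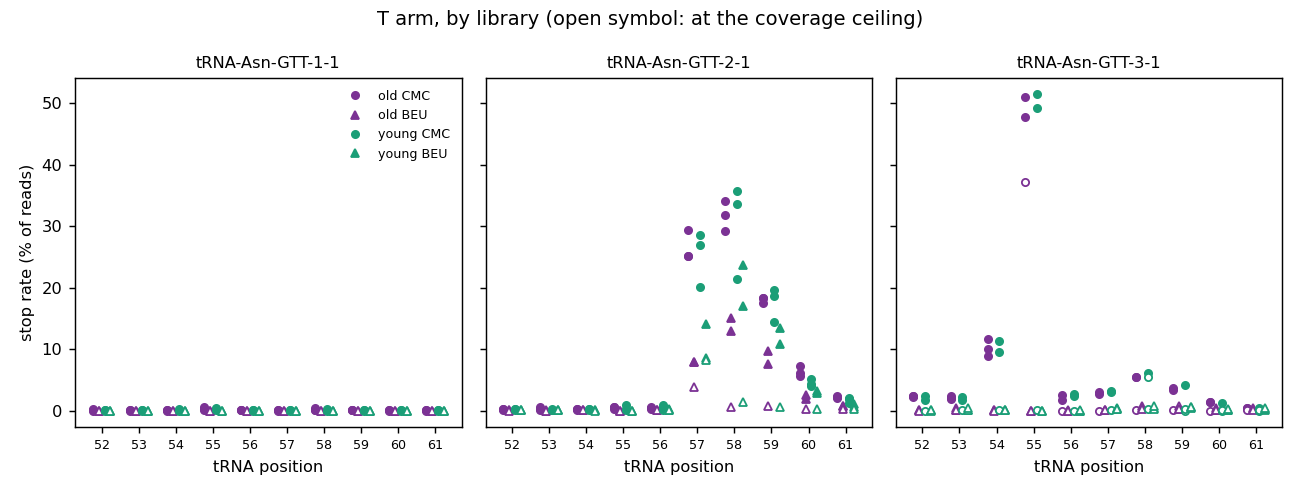
Stop rate in percent of reads at positions 52 to 61 in each library for entries 1-1, 2-1 and 3-1; circles are CMC, triangles BEU, purple old, green young, and open symbols lie at the coverage ceiling. Entry 3-1 peaks at position 55, entry 2-1 at positions 57 to 59 and entry 1-1 stays under 1% throughout.

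In the variable loop, position 47 was a T called in young cells alone. Its stop rate was 16.5%, 16.5% and 14.0% in old CMC libraries, against 0.2%, 5.52% and 13.2% in old BEU libraries, and 17.4%, 9.27% and 16.4% in young CMC libraries, against 0.163%, 0.0777% and 0.238% in young BEU libraries. All 6 BEU libraries lie at the ceiling, and the one with the highest value, 13.2%, came close to the CMC libraries. The call in young cells (rise of 14.2 points, adjusted p = 0.00133) therefore has no BEU value below the ceiling behind it. The neighbouring G46, known for a methylated guanosine set by METTL1, had stops with and without CMC in old cells. Its rate was 16.9%, 18.1% and 14.7% in old CMC libraries, and 15.7% and 15.4% in the 2 old BEU libraries below the ceiling. In young BEU libraries G46 averaged 5.66%, and 4 of the 12 libraries lie at the ceiling there. T48 and T51 gave 6.59% to 9.83% in the CMC libraries below the ceiling.

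Some bases stopped reverse transcriptase without CMC. The strongest was T20a in the D loop, a position that carries an acp3 uridine in some human tRNAs, formed there by DTWD2. In 3-1 it stopped 82.9%, 80.0% and 80.4% of reads in old CMC libraries, against 84.8%, 87.3% and 89.5% in old BEU libraries, and 82.0%, 79.5% and 86.9% in young CMC libraries, against 86.2%, 85.6% and 84.7% in young BEU libraries. In 2-1 the same base averaged 92.8 ± 6.17% in old CMC libraries and 94.7 ± 1.07% in old BEU libraries (SD, n = 3 each). All of these values lie below the ceiling, and no rise with CMC was called. In 3-1 the 3 old CMC values lay below the 3 old BEU values, a difference of -6.09 ± 3.78 points (SD, n = 3; edgeR adjusted p = 0.0559, and 0.0427 in limma with ceiling values left out), while in young cells it was -2.67 ± 4.34 points (SD, n = 3; edgeR adjusted p = 0.423). Coverage in the D loop did not follow a simple loss of reads: in old CMC library 2 it was 55 reads at position 20a, 7 at position 19 and 68 at position 8. In old BEU library 2 it was 2077 reads at position 20a, 205 at position 19 and 416 at position 8. The rate at position 20a is thus a share of the reads counted over that base, not of the molecules that went no further. T20 next to it was covered by as few as 9 reads and was not tested.

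G26, at the junction of the D and anticodon stems and known as a target of TRMT1, stopped 33.3%, 35.2% and 21.1% of reads in old CMC libraries, against 19.1% and 20.3% in the 2 old BEU libraries below the ceiling. It stopped 29.9%, 27.1% and 18.9% in young CMC libraries, against 23.6% and 22.9% in the 2 young BEU libraries below it. CMC values spread across the BEU values in young cells, and the rise was not called in old cells (adjusted p = 0.373) or in young cells (adjusted p = 0.964). G34, the anticodon base known to carry queuosine, stopped 11.8%, 9.31% and 9.84% of reads in old CMC libraries, against 4.66% and 4.34% in the old BEU libraries below the ceiling. It stopped 8.99%, 8.33% and 8.72% in young CMC libraries, against 6.39% and 6.03% in the young BEU libraries below the ceiling. Those groups do not overlap, but the rises were 7.28 and 4.49 points over all 3 pairs, under the 10-point rule, with adjusted p of 0.311 and 0.595. With ceiling values left out, limma gave an adjusted p of 0.00907 in old cells and 0.178 in young cells. A37 next to the anticodon read 3.34% to 3.77% in old CMC libraries, against 2.95% and 2.91% in the old BEU libraries below the ceiling.

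T16 of the D loop, a known dihydrouridine position in many tRNAs, stopped fewer reads with CMC, a difference that passed the test in old cells. Its stop rate was 2.19%, 3.08% and 1.92% in old CMC libraries, against 10.8%, 8.08% and 8.21% in old BEU libraries. It was 0.985%, 2.64% and 3.57% in young CMC libraries, against 5.06%, 3.62% and 5.40% in young BEU libraries. CMC libraries lay below BEU libraries throughout, and no value of this site reached the ceiling. Coverage this far 5′ was low: full-length reads of 3-1 numbered 59 to 375 in the CMC libraries and 243 to 929 in the BEU libraries. The CMC rates at T16 thus rest on few stop reads. The rate was lower with CMC by 6.64 ± 1.84 points in old cells (adjusted p = 0.00192) and 2.29 ± 1.60 points in young cells (adjusted p = 0.0532; SD, n = 3 each). Among all T sites 1.32% had odds lower with CMC at an adjusted p under 0.05 in old cells, and 1.32% in young cells. At 53 other T sites at position 16 the median difference, CMC minus BEU, was -1.04 points in old cells and -0.89 points in young cells. Of these 53 sites, 37 in old cells and 35 in young cells lay above the value of 3-1. The rest fell at least as far, so a fall of this size was not particular to tRNA-Asn.

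**Figure D5:**
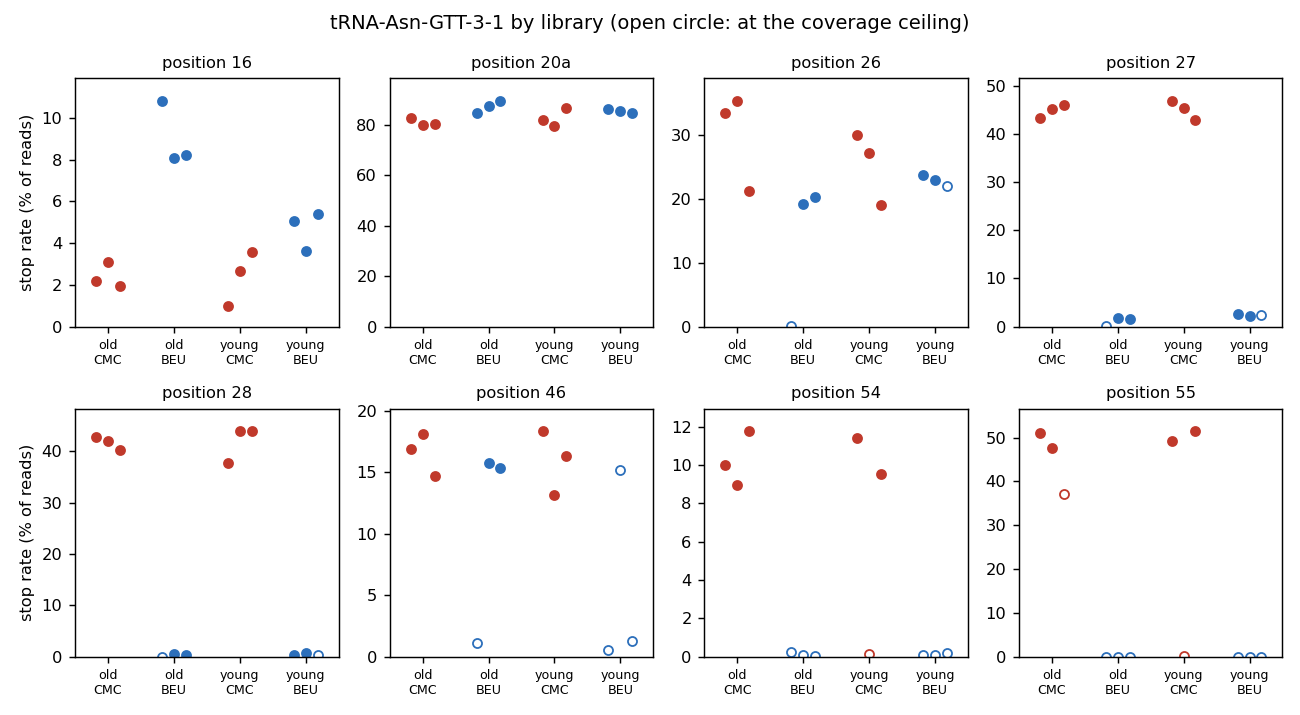
Stop rate in percent of reads of tRNA-Asn-GTT-3-1 in each library at 8 positions, with groups in the order old CMC, old BEU, young CMC and young BEU; red is CMC, blue BEU, and open circles lie at the coverage ceiling. Filled red points stand above filled blue points at positions 27 and 28, below them at position 16, and below them in old cells at position 20a; at positions 54 and 55 no BEU point is filled.

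Old and young cells were then compared, the contrast for which the series was made. A difference between the ages in the rise with CMC was called at none of the 8 tRNA-Asn T sites tested. These were all of positions 27 and 28 together with T47 and T55 of 3-1. With 3 pairs per age this does not show the rises to be equal. The entries share most reads at positions 27 and 28, so these are not 8 separate results. Over all tRNAs the edgeR test called 0% of 439 T sites, with 22 at an unadjusted p under 0.05. The tRNA-Asn site among those 22 was T47 of 3-1, with an adjusted p of 0.909. The old rise minus the young rise was 0.899 ± 1.19 points (difference ± SE, n = 3 pairs each) at position 27 of 3-1 and 0.0331 ± 2.23 points at position 28. It was 1.41 and 0.178 points at positions 27 and 28 of 1-1, and 0.971 and -0.07 points at those of 2-1. At T55 of 3-1 it was 11.7 ± 17.3 points, where young CMC library 2 lies at the ceiling with the lowest value, and at T47 it was -4.81 ± 5.20 points. Adjusted p lay between 0.909 and 0.999 at all 8 sites. T47 passed on leaving out old replicate 1 (adjusted p = 0.00632), a site with no BEU value below the ceiling. That fit called 4 of 441 T sites over all tRNAs. With limma in place of edgeR, 0 of the 8 were called. Both fits include BEU values at the ceiling at positions 27 and 28. With ceiling values left out, limma tested 6 sites, all at these positions, and called 0. The lowest unadjusted p there was 0.217.

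The CMC rates alone gave the same picture for the anticodon stem of 3-1. Position 27 averaged 44.9 ± 1.41% in old CMC libraries and 45.2 ± 1.98% in young CMC libraries, and position 28 averaged 41.7 ± 1.27% in old CMC libraries and 41.8 ± 3.60% in young CMC libraries (SD, n = 3 each). Exact two-sided permutation tests gave p = 0.9 and p = 1, where 3 libraries against 3 cannot go below 0.1. At position 55 old and young CMC libraries below the ceiling overlapped, at 51% and 47.7% in old cells and 49.2% and 51.5% in young cells.

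Without CMC, 15 tRNA-Asn sites averaged a stop rate of 5% or more over the BEU libraries and were compared between the ages, and none was called. The same edgeR test called 0% of 1190 sites over all tRNAs, with 69 at an unadjusted p under 0.05. With limma, 0 of the 15 tRNA-Asn sites passed. The tRNA-Asn site with the lowest p was T16 of 3-1, which averaged 9.04 ± 1.55% in old BEU libraries and 4.69 ± 0.945% in young BEU libraries (SD, n = 3 each; edgeR, adjusted p = 0.503). The 3 old values lay above the 3 young values. The exact permutation test gave p = 0.1, the smallest it can give, and an adjusted value of 0.3 over 9 tests. It used the same 6 values that gave T16 the lowest p of the 15 sites, so it is no separate evidence. Position 9 of 3-1, at 3.81% in old and 1.85% in young BEU libraries, gave the same p in that test. With sites below the ceiling alone, T16 passed (adjusted p = 0.00399), in a fit that called 5.6% of its 893 sites. With CMC the same base averaged 2.40 ± 0.604% in old cells and 2.40 ± 1.31% in young cells (SD, n = 3 each). T20a of 3-1 averaged 87.2 ± 2.37% in old BEU libraries and 85.5 ± 0.750% in young BEU libraries (SD, n = 3 each; adjusted p = 0.999). G26 averaged 13.2% in old and 22.8% in young BEU libraries, and each mean includes 1 library at the ceiling, with 0.1% in old and 21.9% in young cells. A21 averaged 7.77 ± 0.483% in old BEU libraries and 8.20 ± 0.987% in young BEU libraries, and G1 averaged 5.61 ± 1.44% in old and 5.15 ± 0.551% in young BEU libraries (SD, n = 3 each). A57, A58 and G59 of 2-1 averaged 6.59%, 9.59% and 6.04% in old BEU libraries and 10.4%, 14.1% and 8.35% in young BEU libraries, with adjusted p of at least 0.891. G46 of 3-1 and T36 of 1-1, the remaining positions, had adjusted p of 0.999.

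The level of each entry, taken as its highest coverage in the BEU libraries, was not called as different between the ages. The log2 ratio of old over young was 0.62 ± 0.45 for 3-1, 0.23 ± 0.24 for 1-1, 0.14 ± 0.22 for 2-1, -0.46 ± 0.28 for 4-1 and -0.38 ± 0.15 for 5-1 (± SE, n = 3 libraries each). Adjusted p was 0.681 for 3-1, 4-1 and 5-1, 0.705 for 1-1 and 0.795 for 2-1, and the edgeR test called 0% of 213 tRNAs, while DESeq2 called 1, which was no tRNA-Asn. The unadjusted p was under 0.05 for 5-1 alone among the tRNA-Asn entries. Entry 3-1 read 8000, 7998 and 7999 in old BEU libraries and 7997, 7995 and 7999 in young BEU libraries. All 6 values lie at the ceiling, so the level of the main tRNA-Asn entry was not measured here. Entries 1-1 and 2-1 reached the ceiling in 3 and 2 of the 6 BEU libraries, so their ratios are limited too. Between 21 and 103 of the 213 tRNAs lay at the ceiling in each BEU library, and these values entered the TMM scaling of all entries. Entry 5-1 lay below the ceiling, with 170, 62 and 48 reads in old BEU libraries and 129, 122 and 212 in young BEU libraries, and these overlap.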

How the data were processed

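DM-Ψ-seq data of small RNA under 200 nt were used as 6 deposited tables, 1 per age and replicate, each with a CMC and a BEU library. Per the file headers, the authors deposited for each base the coverage as a count of reads, the stop reads as whole numbers of reads (lowest value 1) and the stop rate as a percent. Bowtie2 2.3.5, Bowtie and the build mm10 are listed in the submitters' processing notes; the rule that defines a stop and the treatment of reads with several matches are not given in the sources used here.

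Stops and read-through were tested over all tRNAs with edgeR 4.0.16 in R 4.3.3 (quasi-likelihood, library coefficients and group log odds), with Benjamini-Hochberg adjustment over 2189 T sites and, apart, over 7870 A, C and G sites. The age contrast was the interaction. Levels used TMM and filterByExpr in edgeR. Scripts were tested on simulated data. The members, gene roles and position lists were chosen with earlier results of these data known. Named sites were every called tRNA-Asn site, positions 54 and 55 of every entry, all tested age differences, all positions with a BEU rate of at least 5%, and every entry's level; A58, G34, A37, T48 and T51 were added after their values were seen. Summed over distinct tRNAs, the highest coverage per library ranged from 201980 to 767650 reads with CMC and from 533736 to 1061426 in BEU. Reads carry no molecular identifiers.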

Additional observations from a re-analysis of the deposited data

How the results depend on the processing

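The rises at positions 27 and 28 of tRNA-Asn-GTT-3-1 stayed called in both ages under all 12 alternatives that could be run for them, among them limma 3.58.1 with ceiling values left out site by site, which was chosen after seeing the data. That fit called 6 tRNA-Asn T sites in each age and could not test T47, T54 or T55 of 3-1, since too few BEU libraries remained. With all entries kept, 40 of 165 tRNA-Asn T sites were called in each age, because copies repeat. Over all tRNAs that setting called 967 of 4893 T sites in old cells and 918 in young cells. With sites below the ceiling alone, 7 tRNA-Asn T sites remained and 0 were called in either age, and likewise 0 of the A, C and G sites. Positions 27 and 28 are absent from that set. Over all tRNAs it called 232 of 1179 T sites in old cells and 210 in young cells. Leaving out 1 pair gave 7 to 8 T calls in old cells and 7 to 9 in young cells. Over all tRNAs these fits called 411 to 451 of 2189 T sites in old cells and 374 to 448 in young cells. The A, C and G calls numbered 2 in old cells with ceiling values left out. In young cells they numbered 0 with 1 subtracted from coverage and stops and 0 with the replicate block, and 0 to 2 on leaving out 1 pair. Over all tRNAs these young calls numbered 20 of 7787, 9 of 7870 and 5 to 43 of 7870. The age difference of the rise called 0 to 1 tRNA-Asn sites on leaving out 1 pair, against 0 to 4 over all tRNAs. The BEU comparison called 1 of 6 tRNA-Asn sites below the ceiling, against 50 of 893 over all tRNAs. DESeq2 1.42.0 called 0 tRNA-Asn levels. The replicate block changed no other call; deviations of same-numbered libraries were correlated from -0.52 to 0.39 over 5262 sites, not above 0.1 in every pair, so the number was not used as a pairing in the fit, although the CMC and BEU libraries of 1 number share a deposited table. Between the CMC and BEU libraries of 1 age these correlations ran from -0.33 to 0.25. The rule of a rise in all 3 pairs, the SD of each rise and the SE of each age difference did match libraries by number. The ceiling limits the T arm of 3-1 in all 6 BEU libraries.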
